A study of Mus musculus with 3 samples.

Results

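Polycomb repressive complex 2 (PRC2) is the enzyme that methylates lysine 27 of histone H3, a mark of silenced chromatin. Its catalytic subunit is either EZH2, typical of dividing cells, or EZH1, which prevails in cells that have stopped dividing. EED reads the mark and stimulates the enzyme, SUZ12 holds the complex together, and RBBP4 or RBBP7 bind histones. Accessory proteins define alternative forms: MTF2 and PHF19, of the Polycomb-like family, belong to the first form, and JARID2 and AEBP2 to the second. EZH2 is a well known oncogenic factor of advanced prostate cancer and of its neuroendocrine variant.

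The 10 genes examined here are those of these core and accessory subunits, Ezh1, Ezh2, Eed, Suz12, Rbbp4, Rbbp7, Mtf2, Phf19, Jarid2 and Aebp2, taken by name from the 46095 gene symbols counted, and all 10 passed the filter on low counts that left 18216 genes. RNA was sequenced from prostate tumor tissue of TRAMP mice on C57BL/6 at 37 weeks, in which the probasin promoter drives the SV40 oncoprotein in prostatic epithelium. The Phf8-KO group (2 libraries, Phf8-KO1 and Phf8-KO2) came from TRAMP males labelled as knockouts of the X-linked histone demethylase gene Phf8, bred from knockout females, and the TRAMP group (1 library) from TRAMP males wild type for Phf8. Each library is RNA pooled from 3 mice, and whether separate mice went into each Phf8-KO pool is not stated, so p-values measure only the spread between these libraries, which may be technical. PHF8 removes methyl groups from several lysines of histones, dimethylated H3K27 among them, so the comparison asks how transcripts of the enzyme that writes this mark stood in the tumors labelled Phf8 knockout.

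The libraries held 26747443 to 31876182 counts. Phf8 itself was at 15.0 and 15.9 CPM (counts relative to the library size, scaled by TMM) in the Phf8-KO libraries, against 19.4 CPM in TRAMP, and since the part of the gene deleted is not given, this does not check the genotype. Luminal prostate markers were present in every library, 7 genes summing to 4492 and 4023 CPM in the Phf8-KO libraries and 4117 CPM in TRAMP, with the keratin genes Krt8 and Krt18 among them. Several other lists differed between the groups: 9 neuroendocrine genes summed to 42.1 and 25.3 CPM in the Phf8-KO libraries against 162 CPM in TRAMP, 10 skeletal muscle genes to 104 and 12.3 CPM against 1853 CPM, and 6 B and plasma cell genes to 56.3 and 14.2 CPM against 336 CPM. These were below TRAMP in both pools for 8 of 9, 10 of 10 and 6 of 6 genes, against 42.8% of all genes tested. Adipocyte, macrophage and erythroid sums were also lower in both Phf8-KO pools. In contrast, 7 of 7 seminal vesicle genes were above TRAMP in both pools, against 40.8% of all genes, summing to 1435 and 2101 CPM against 116 CPM. Smooth muscle genes separated the Phf8-KO pools from each other, with 5058 CPM for Phf8-KO1, 381 CPM for Phf8-KO2 and 683 CPM in TRAMP. In such bulk tissue, fewer cells of a type and less RNA per cell cannot be told apart, and the part of these lists in the PRC2 values was not tested.

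Phf19 stood apart from the other subunit genes, at more than double the TRAMP level in both Phf8-KO pools. Fitted over both pools, the other 9 stayed within a log2 fold change of 0.52 of TRAMP in either direction. In single pools, the log2 ratio to TRAMP reached -0.68 for Mtf2 in Phf8-KO1 and 0.63 for Ezh2 in Phf8-KO2. The quasi-likelihood test of edgeR called 0 of these 10 genes (Benjamini-Hochberg p below 0.05 with a fold above 2 or below 0.5), a test that called 0% of the 18216 genes higher and 0.0384% lower. At p below 0.05 before adjustment, 1 of the 10 was higher and 0 were lower, against 14.9% and 12.2% of all genes. DESeq2 called 1 of the 10 higher, Phf19, and 0 lower, against 9.42% and 4.59% of 16269 genes. Without a filter on low counts edgeR also called only Phf19, against 5.55% of 25757 genes higher and 3.32% lower. The median log2 fold change was 0.16 over the 10 subunit genes and 0.01 over all genes tested, and the median size of the change without its sign was 0.30 and 0.67. Upper quartile scaling put the subunit median at 0.01 and that of all genes at -0.14. Both Phf8-KO pools lay above TRAMP for 5 genes and below it for 2, with TRAMP between the pools for the other 3, while among all genes 40.8% lay above and 42.8% below in both pools.

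**Figure D1:**
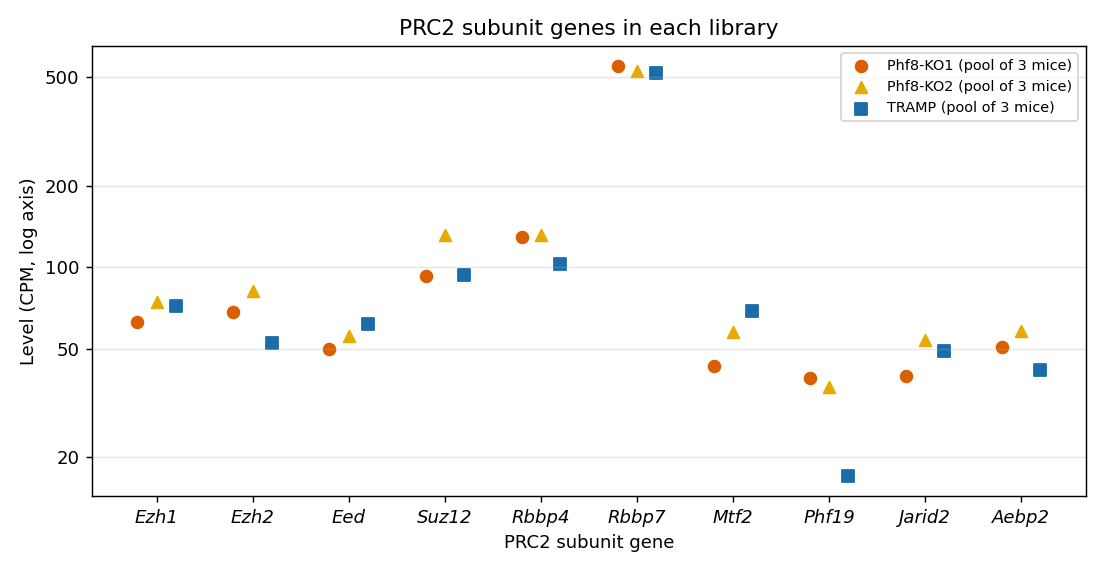
Level of the 10 PRC2 subunit genes in CPM on a log axis, Phf8-KO1 drawn as circles, Phf8-KO2 as triangles and TRAMP as squares, each a pool of 3 mice. Phf19 lies at 39.1 and 36.3 CPM in the Phf8-KO libraries and at 17.1 CPM in TRAMP, and Rbbp7 lies at 517 CPM or more in every library.

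The start regions of Ezh2, Suz12 and Phf19 are shown because they are the subunit genes whose promoter windows held a match to the binding word of E2F factors, the activators of genes for DNA replication. The windows come from RefSeq on GRCm38.p6, run from 250 bases before to 50 bases after an annotated start, and are written 5′ to 3′ on the strand of the gene, with matches in capitals. All 10 genes matched the table, with 14 windows in all. Searched on both strands were TTTCCCGC, TTTCGCGC, TTTGCCGC and TTTGGCGC, and no other motif was searched.
Ezh2, chr6:47594981-47595280, minus strand: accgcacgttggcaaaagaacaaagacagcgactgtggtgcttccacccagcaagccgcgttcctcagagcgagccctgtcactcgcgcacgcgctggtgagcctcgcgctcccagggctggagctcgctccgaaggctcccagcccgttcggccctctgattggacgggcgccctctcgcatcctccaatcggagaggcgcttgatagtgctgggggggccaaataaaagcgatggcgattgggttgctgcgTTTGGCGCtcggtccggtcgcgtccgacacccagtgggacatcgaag
Suz12, chr11:79992856-79993155, plus strand: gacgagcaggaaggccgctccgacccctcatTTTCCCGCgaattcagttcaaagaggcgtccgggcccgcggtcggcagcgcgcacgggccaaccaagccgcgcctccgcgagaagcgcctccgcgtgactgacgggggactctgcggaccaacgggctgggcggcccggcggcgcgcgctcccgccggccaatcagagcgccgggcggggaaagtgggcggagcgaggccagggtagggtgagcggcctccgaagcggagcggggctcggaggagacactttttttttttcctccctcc
Phf19, chr2:34913927-34914226, minus strand: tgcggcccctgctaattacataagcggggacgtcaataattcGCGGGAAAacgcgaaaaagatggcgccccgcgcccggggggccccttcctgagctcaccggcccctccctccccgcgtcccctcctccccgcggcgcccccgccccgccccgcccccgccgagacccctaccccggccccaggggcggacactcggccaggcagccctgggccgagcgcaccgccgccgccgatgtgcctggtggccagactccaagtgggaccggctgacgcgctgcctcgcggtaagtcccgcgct
Counted from the annotated start, the match begins at 3 in Ezh2, at -219 in Suz12 and at -208 in Phf19, where it reads GCGGGAAA and lies on the opposite strand. These 3 of 14 windows compare with 744 of 32851 windows of the same length in the table, or 2.26%. The starts used for Ezh2 and Phf19 lie inside the gene spans given below, which end at 47595270 and 34914353 on the minus strand. A match of letters is not a bound site, and the windows of the other 7 genes show only that these words are not in them.

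Among the catalytic subunits, Ezh2 was higher in both Phf8-KO pools and Ezh1 was not. Ezh2 (chromosome 6 of GRCm38, 47530274 to 47595270, up to 20 exons) was at 68.6 and 81.4 CPM in the Phf8-KO libraries, against 52.4 CPM in TRAMP. Both pools lay above the single TRAMP pool, as they did for 40.8% of all genes tested, while 42.8% lay below it in both. The log2 fold change was 0.52 (standard error 0.21), for which edgeR's adjusted p was 0.223 and that of DESeq2 0.290. Of all genes tested, 60.1% changed at least as much in either direction. Ezh1 (chromosome 11, 101191115 to 101226463, up to 21 exons) was at 62.9 and 74.8 CPM in the Phf8-KO libraries and 72.1 CPM in TRAMP, so that TRAMP lay between the pools. Its log2 fold change was -0.07 (standard error 0.21, edgeR adjusted p = 0.854), and scaling by library size alone turned it to 0.01.

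The balance of the catalytic paralogs can be read within a library, where it does not depend on scaling between libraries. Per kilobase of annotated exons, the ratio of Ezh2 to Ezh1 was 1.22 in Phf8-KO1 (95% exact counting interval 1.14 to 1.30) and 1.21 in Phf8-KO2 (1.15 to 1.28), against 0.811 in TRAMP (0.758 to 0.867). On this length, Ezh2 was thus the more abundant paralog in both Phf8-KO pools and the less abundant one in TRAMP. The ratio was 1.4998 times the TRAMP ratio in Phf8-KO1 and 1.497 times in Phf8-KO2. Which paralog led in TRAMP depended on the length used, since per kilobase of the longest transcript the ratio was 1.65 and 1.64 in the Phf8-KO pools and 1.10 in TRAMP. The counting intervals cover counting error only, and reads duplicated in PCR are not independent molecules. No test of the ratio between conditions was run, TRAMP being a single pool.

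**Figure D2:**
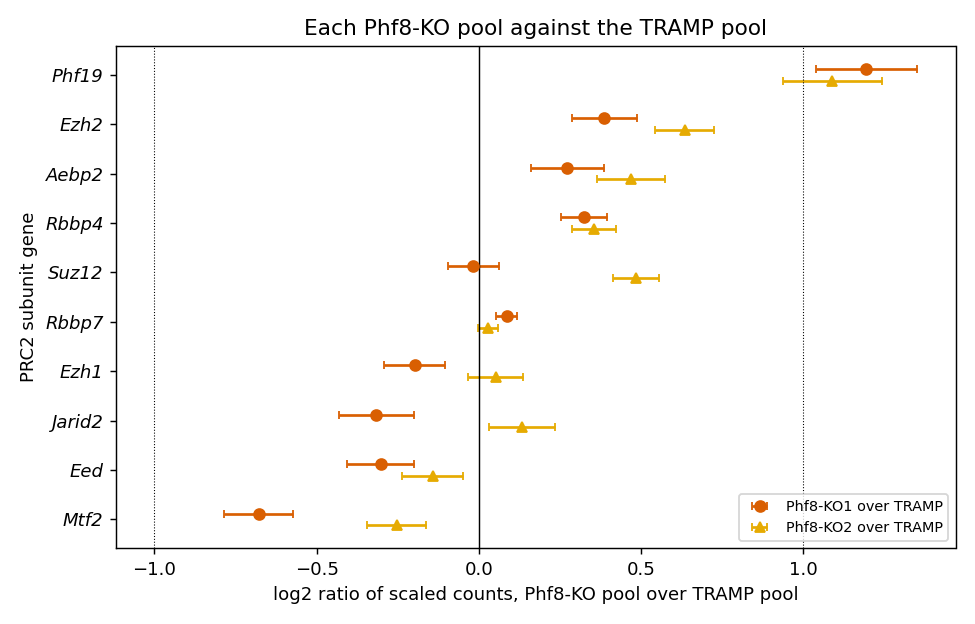
Log2 ratio of scaled counts of each Phf8-KO pool over the TRAMP pool for the 10 PRC2 subunit genes, Phf8-KO1 as circles and Phf8-KO2 as triangles. Bars are 95% exact counting intervals and dotted lines mark 2-fold. Phf19 lies near or above the upper dotted line in both pools, and Ezh1, Suz12 and Jarid2 have pools on either side of 0.

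Of the scaffold subunits, neither Eed nor Suz12 differed from TRAMP beyond the spread that the test allowed. Eed, the reader of the mark (chromosome 7, 89954654 to 89980976, up to 12 exons), was at 50.1 and 56.0 CPM in the Phf8-KO libraries, against 61.8 CPM in TRAMP. Both pools lay below TRAMP, by a log2 fold change of -0.22 (standard error 0.19, edgeR adjusted p = 0.495). Suz12 (chromosome 11, 79993106 to 80034123, up to 16 exons) was at 92.8 CPM in Phf8-KO1 but 131 CPM in Phf8-KO2, against 93.9 CPM in TRAMP. Phf8-KO1 thus sat at the TRAMP level and Phf8-KO2 above both, and Suz12 had the widest gap between the Phf8-KO pools of the 10 genes, a ratio of 1.42 (95% counting interval 1.35 to 1.49). Its log2 fold change of 0.26 (standard error 0.29, edgeR adjusted p = 0.592) became -0.02 without Phf8-KO2.
Relative to these partners, Ezh2 counts were higher in the Phf8-KO pools. The ratio of Ezh2 to Eed was 1.61 times the TRAMP ratio in Phf8-KO1 and 1.71 times in Phf8-KO2, and that of Ezh2 to Suz12 was 1.32 and 1.11 times. For Ezh2 to Suz12 in counts, the 95% counting intervals of Phf8-KO2 (0.591 to 0.650) and TRAMP (0.524 to 0.595) overlapped slightly.

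The histone-binding subunits are shared with other chromatin complexes, and Rbbp7 was by far the most abundant of the 10 genes. Rbbp4 (chromosome 4, 129307100 to 129335370, up to 12 exons) was at 129 and 132 CPM in the Phf8-KO libraries, against 103 CPM in TRAMP. The Phf8-KO pools differed by less than counting error here (ratio 1.02, 95% counting interval 0.976 to 1.07) and both lay above TRAMP, with a log2 fold change of 0.34 (standard error 0.18, edgeR adjusted p = 0.309). Rbbp7 (chromosome X, 162760372 to 162779090, up to 12 exons) was at 549 and 528 CPM in the Phf8-KO libraries, against 517 CPM in TRAMP. That is a log2 fold change of 0.06 (standard error 0.25, edgeR adjusted p = 0.897), which upper quartile scaling turned to -0.09.
Per kilobase of exons the ratio of Rbbp7 to Rbbp4 was 12.8 and 12.1 in Phf8-KO1 and Phf8-KO2, against 15.1 in TRAMP, or 0.847 and 0.798 times the TRAMP ratio. Rbbp4 shares 782 exonic bases with Sync and 796 with Gm26722 on the opposite strand, and as the strand setting of the counting is not stated, reads of such partners cannot be told apart. Shared stretches were shorter for Mtf2 (395 bases, with Tmed5), Eed (261 bases), Suz12 (178 bases), Ezh2 (174 bases) and Rbbp7 (174 bases), and Phf19, Ezh1, Jarid2 and Aebp2 had none.

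The largest difference from TRAMP was among the Polycomb-like subunits, which recruit PRC2 to its targets and read methylated lysine 36 of H3 through their Tudor domains. Phf19 (chromosome 2, 34893752 to 34914353, up to 15 exons) was at 39.1 and 36.3 CPM in the Phf8-KO libraries, from 1041 and 1203 counts, against 17.1 CPM from 493 counts in TRAMP. The pools lay close together and far from TRAMP: the ratio to TRAMP was 2.29 for Phf8-KO1 (95% counting interval 2.06 to 2.55) and 2.13 for Phf8-KO2 (1.91 to 2.37). The log2 fold change was 1.14 (standard error 0.21), for which edgeR's quasi-likelihood test gave a Benjamini-Hochberg adjusted p of 0.104. DESeq2 gave an adjusted p of 0.012 and edgeR without a filter on low counts 0.021, and both called Phf19 higher. Over the 8 tested alternatives the log2 fold change ran from 0.99 to 1.22 and the adjusted p from 0.012 to 0.109. A change of this size in either direction was not rare in these libraries, as 28.7% of all genes tested changed at least as much.
Mtf2 (chromosome 5, 108065660 to 108109219, up to 17 exons) lay the other way, at 43.1 and 57.9 CPM in the Phf8-KO libraries, against 69.0 CPM in TRAMP. Both pools were below TRAMP but stood apart from each other, with a log2 fold change of -0.45 (standard error 0.25, edgeR adjusted p = 0.329).
The ratio of Phf19 to Mtf2 was thus higher in both Phf8-KO pools than in the single TRAMP pool. No test of this ratio between conditions was run, and the intervals below cover counting error only. Per kilobase of exons the ratio of Phf19 to Mtf2 was 1.02 in Phf8-KO1 (95% counting interval 0.941 to 1.12) and 0.709 in Phf8-KO2 (0.659 to 0.762), against 0.280 in TRAMP (0.253 to 0.309). The ratio was 3.66 times the TRAMP ratio in Phf8-KO1 and 2.53 times in Phf8-KO2, and it differed between the Phf8-KO pools too. With the longest transcript as the length, the ratios were 0.983, 0.680 and 0.268 in the same libraries.

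**Figure D3:**
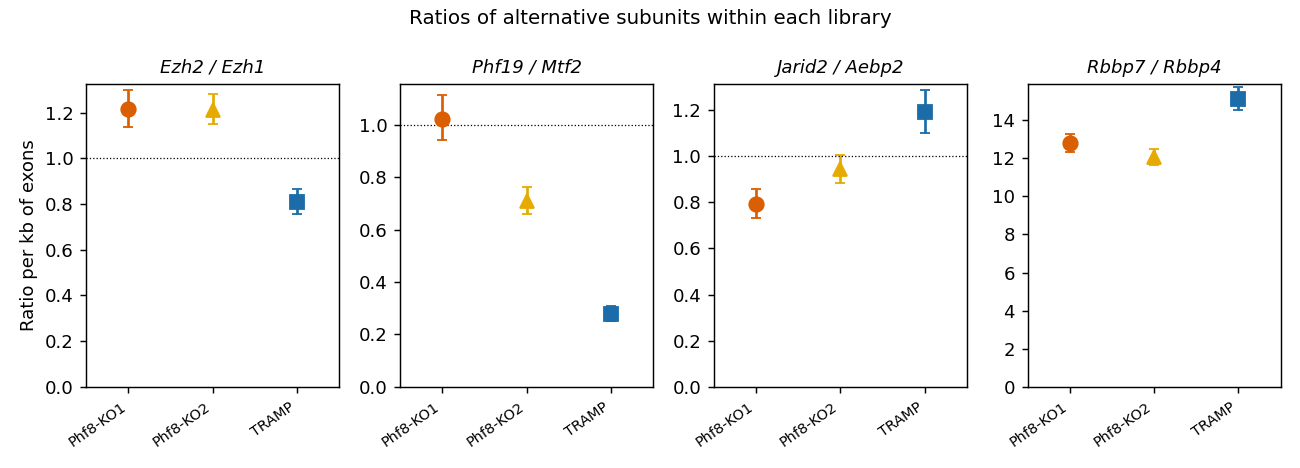
Ratio of alternative PRC2 subunits within each library, per kilobase of annotated exons, with 95% exact counting intervals as bars and a dotted line at equal levels where it is in range. The ratios of Ezh2 to Ezh1 and of Phf19 to Mtf2 are above their TRAMP value in both Phf8-KO pools, and those of Jarid2 to Aebp2 and of Rbbp7 to Rbbp4 are below it.

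The subunits of the second form differed less. Jarid2 (chromosome 13, 44730774 to 44921643, up to 19 exons), a DNA-binding member of the Jumonji family without demethylase activity, was at 39.7 and 54.2 CPM in the Phf8-KO libraries and 49.4 CPM in TRAMP, with TRAMP between the pools. Its log2 fold change was -0.07 (standard error 0.27, edgeR adjusted p = 0.878), and it was -0.32 without Phf8-KO2 and 0.16 without Phf8-KO1. Aebp2 (chromosome 6, 140622454 to 140678472, up to 9 exons), a zinc finger protein that stimulates the complex, was at 50.8 and 58.2 CPM in the Phf8-KO libraries, against 42.02 CPM in TRAMP. Both pools lay above TRAMP, at a log2 fold change of 0.37 (standard error 0.20, edgeR adjusted p = 0.311). Per kilobase of exons the ratio of Jarid2 to Aebp2 was 0.792 and 0.944 in the Phf8-KO pools, against 1.19 in TRAMP, that is 0.665 and 0.793 times the TRAMP ratio.

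The summed share of Phf19 and Mtf2 was close in the 3 libraries, while the shares within each pair differed. Phf1, a further Polycomb-like gene, is not in these sums. Of the summed level of Phf19, Mtf2, Jarid2 and Aebp2 per kilobase of exons, Phf19 and Mtf2 together took 62.4% in Phf8-KO1 and 60.2% in Phf8-KO2, against 62.4% in TRAMP. Phf19 alone took 31.6% and 25.0% in the Phf8-KO pools, against 13.6% in TRAMP, and Mtf2 took 30.8% and 35.2%, against 48.8%. Jarid2 took 16.6% and 19.3%, against 20.4%, and Aebp2 21.0% and 20.5%, against 17.2%. The summed level of these 4 genes was 24.6 and 28.9 CPM per kilobase in the Phf8-KO pools and 24.8 CPM per kilobase in TRAMP.

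**Figure D4:**
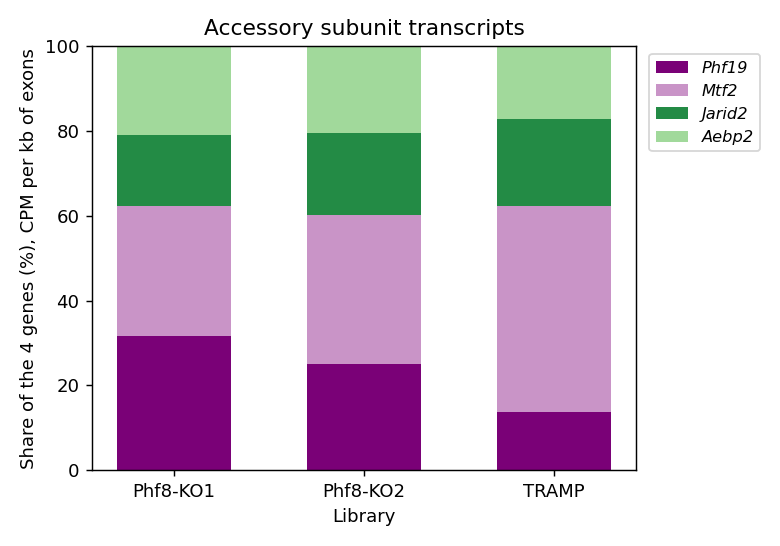
Share of each of 4 accessory subunit genes in their summed level (CPM per kilobase of annotated exons) in each library. Phf19 takes 31.6% in Phf8-KO1, 25.0% in Phf8-KO2 and 13.6% in TRAMP, while Phf19 and Mtf2 together take 60.2% to 62.4%.

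Ranked by level per kilobase of exons, the order of the subunits differed in the middle and at the bottom, and not at the top. Rbbp7 was first and Suz12 second in every library, with Rbbp7 at 185 ± 5.16 CPM per kilobase (SD, n = 2 pools) in Phf8-KO and 178 in TRAMP. In Phf8-KO the next were Rbbp4 at 14.9 ± 0.214, Eed at 13.9 ± 1.09 and Ezh2 at 11.2 ± 1.36 CPM per kilobase, whereas in TRAMP they were Eed at 16.1, Mtf2 at 12.1 and Rbbp4 at 11.8 CPM per kilobase. Ezh1 at 9.25 ± 1.13, Mtf2 at 8.87 ± 1.84 and Phf19 at 7.48 ± 0.388 CPM per kilobase could not be placed in order in Phf8-KO, because their order differed between the pools. Phf19 was the lowest of the 10 in TRAMP, at 3.39 CPM per kilobase, and stood above Aebp2 and Jarid2 in both Phf8-KO pools on this length. With the longest transcript as the length Suz12 no longer ranked second in TRAMP or Phf8-KO1, Phf19 lay just below Aebp2 in Phf8-KO2 (9.71 and 9.81 CPM per kilobase), and Phf19 was again the lowest in TRAMP.
Between the Phf8-KO pools, 8 of the 10 genes were higher in Phf8-KO2, all but Rbbp7 and Phf19. The share of all genes higher in Phf8-KO2 was not counted, so this is not shown to be particular to the subunit genes. The median distance between the pools on the log2 scale was 0.22 for the subunit genes and 0.31 for all genes tested. Within these libraries the level of Ezh2 was followed most closely by Sos2, Lrch1 and Svil, whose pairs of log2 ratios to TRAMP lay within 0.0214 of that of Ezh2 among 4694 genes of like level. Sos2, for example, was at 36.7 and 43.4 CPM in the Phf8-KO libraries and 28.1 CPM in TRAMP. For Ezh1 the closest were Ddb2, Pign and Klhdc2, within 0.0217 among 4653 genes. With 3 libraries, such likeness is only a description.

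Other accessory genes of PRC2 were divided. Epop, which competes with JARID2 for the complex and is listed under its older symbol E130012A19Rik, was at 5.25 and 8.48 CPM in the Phf8-KO libraries, against 1.25 CPM in TRAMP (log2 fold change 2.46, standard error 0.62, edgeR adjusted p = 0.128, DESeq2 adjusted p = 0.011). Phf1, the third Polycomb-like gene, was at 48.1 and 62.0 CPM, against 42.5 CPM. Lcor and Lcorl lay lower in both Phf8-KO pools, with Lcorl at 17.1 and 22.2 CPM against 25.5 CPM, and Ezhip, an inhibitor of EZH2 (listed as AU022751), had 0 counts in every library, where 3 counts would be 0.0905 to 0.113 CPM. Of these 5 genes, 4 were tested and 0 passed edgeR's test. At p below 0.05 before adjustment 1 was higher, against 14.9% of all genes, and 1 was higher by DESeq2, against 9.42%.
PRC1, the complex that binds the mark through its CBX proteins and ubiquitinates H2A, lay higher on balance. Of 21 genes, 20 were tested, 11 lay above TRAMP in both Phf8-KO pools and 5 below, with a median log2 fold change of 0.39. None passed edgeR's test, 8 were higher and 0 lower at p below 0.05 before adjustment, and DESeq2 called 5 higher. Among all genes, 40.8% lay above and 42.8% below in both pools, and before adjustment 14.9% were higher and 12.2% lower. The DESeq2 shares over all genes were 9.42% higher and 4.59% lower. Phc2 was at 40.8 and 44.8 CPM in the Phf8-KO libraries, against 18.0 CPM in TRAMP, Kdm2b at 30.7 and 33.1 CPM against 14.6 CPM, and Cbx6 at 216 and 264 CPM against 104 CPM. Rnf2, the ubiquitin ligase subunit, was not among them, at 62.3 and 74.9 CPM against 81.1 CPM. Its paralog Ring1 had too few counts to test, 6 and 9 in the Phf8-KO libraries and 3 in TRAMP.
PR-DUB, which removes the PRC1 mark, had 6 of 8 genes above TRAMP in both pools, against 40.8% of all genes. Its median log2 fold change was 0.63, with 0 calls by edgeR. At p below 0.05 before adjustment 4 were higher, against 14.9% of all genes, and DESeq2 called 3 higher, against 9.42%. Foxk1 was at 45.3 and 45.6 CPM, against 16.0 CPM in TRAMP, Mbd6 at 70.6 and 86.9 CPM, against 25.5 CPM, and the deubiquitinase gene Bap1 at 50.03 and 57.6 CPM, against 25.9 CPM.
Of 8 genes for enzymes that oppose PRC2, by removing H3K27 methylation or writing marks that hinder it, 0 passed edgeR's test. DESeq2 called 2 of the 8 higher, against 9.42% of 16269 genes. These were Kmt2b (78.0 and 109 CPM, against 38.4 CPM in TRAMP) and Kdm6b, an H3K27 demethylase gene (42.4 and 63.1 CPM, against 23.5 CPM). Nsd2, the H3K36 methyltransferase gene listed as Whsc1, was at 120 and 126 CPM, against 68.4 CPM. The other H3K27 demethylase gene, Kdm6a, was at 44.6 and 49.2 CPM, against 54.3 CPM.

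Rbbp4 and Rbbp7 serve further complexes, and most genes listed for those lay above TRAMP. Of 18 genes of CAF-1, NuRD, SIN3 and HAT1, 15 lay above TRAMP in both Phf8-KO pools and 2 below, with a median log2 fold change of 0.74. Among all genes, 40.8% lay above and 42.8% below in both pools. None of the 18 passed edgeR's test. At p below 0.05 before adjustment 9 were higher and 1 lower, against 14.9% and 12.2% of all genes. DESeq2 called 6 higher and 0 lower, against 9.42% and 4.59%. Chaf1a, the large subunit of the replication-coupled histone chaperone CAF-1, was at 67.3 and 73.2 CPM, against 20.5 CPM in TRAMP (log2 fold change 1.78, standard error 0.20). Its partner Chaf1b was at 86.5 and 78.7 CPM, against 37.9 CPM, and the NuRD gene Gatad2a at 98.0 and 103 CPM, against 35.3 CPM.
Proliferation genes also lay higher. All 20 listed genes lay above TRAMP in both Phf8-KO pools, with a median log2 fold change of 1.09 and a summed level of 3098 and 2934 CPM in the Phf8-KO libraries, against 1734 CPM in TRAMP. By edgeR 0 passed, 16 were higher at p below 0.05 before adjustment, and DESeq2 called 11 higher. The shares over all genes were 40.8% above in both pools, 14.9% higher before adjustment and 9.42% higher by DESeq2. The mitotic kinase gene Plk1 was at 26.1 and 21.1 CPM, against 5.43 CPM, the transcription factor gene E2f1 at 40.3 and 49.1 CPM, against 17.1 CPM, and the replication helicase gene Mcm5 at 186 and 175 CPM, against 82.4 CPM. Set against that sum, Ezh2 was not higher in Phf8-KO, at 2.21% and 2.78% of it in the Phf8-KO pools and 3.02% in TRAMP, and Ezh1 was at 2.03% and 2.55%, against 4.16%. Phf19 was at 1.26% and 1.24% of the sum, against 0.984% in TRAMP. The part of dividing cells in the levels of Ezh2 and Phf19 was not tested.

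**Figure D5:**
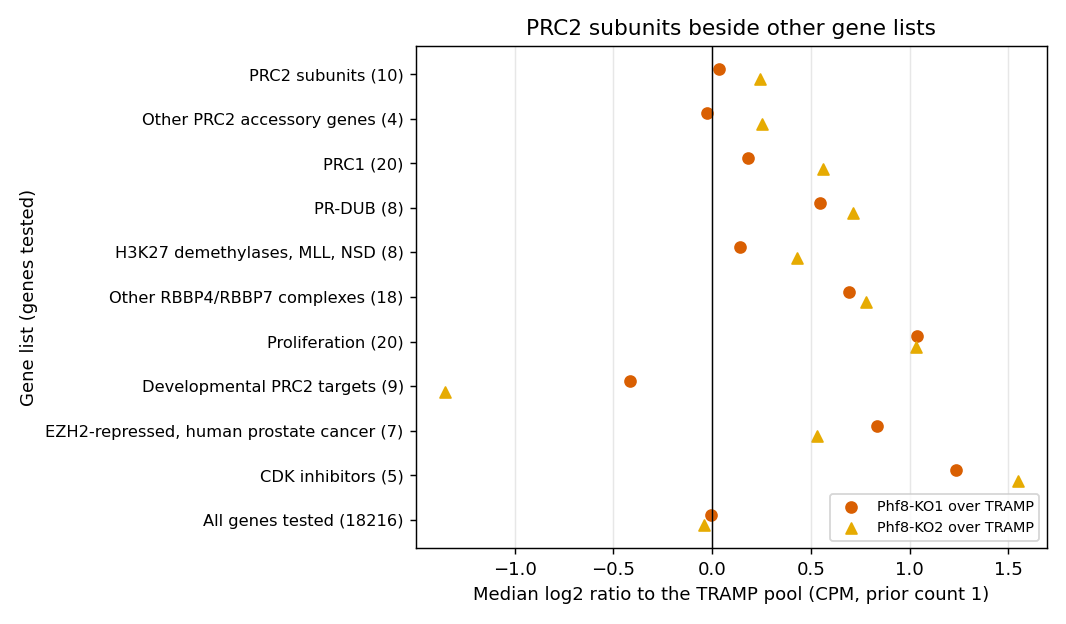
Median log2 ratio to the TRAMP pool over the tested genes of each list, Phf8-KO1 as circles and Phf8-KO2 as triangles, with the number of genes tested in brackets. PRC2 subunit genes lie at 0.03 and 0.24, proliferation genes at 1.04 and 1.03, and all genes tested at -0.01 and -0.04.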

How the data were processed

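Tumor RNA of 2 Phf8-KO pools and 1 TRAMP pool was sequenced. Reads were filtered and aligned by the authors with HISAT2 (GRCm38), and their deposited tables hold raw HTSeq counts for each gene (26747443, 31876182 and 29954020 for Phf8-KO1, Phf8-KO2 and TRAMP). Tool versions, annotation release and strand setting are not given in the sources used here. Counts were tested in R 4.3.3 with edgeR 4.0.16 (TMM scaling, filterByExpr, quasi-likelihood test at the default setting, Benjamini-Hochberg adjustment over 18216 genes). With 1 residual degree of freedom, only the Phf8-KO pools inform the spread, which the lone TRAMP pool is taken to share. The Phf8-KO pools differed beyond counting noise (chi-square of 96.9 per degree of freedom). The standard error is the log2 fold change divided by the root of F. Log2 ratios of single pools used a prior count of 1. Gene positions come from RefSeq and exon numbers and lengths from GENCODE M21, both on GRCm38. DESeq2 (the study's tool, here version 1.42.0), which gave no adjusted p for 9488 of 25757 genes, limma-voom (limma 3.58.1), other scalings and filters, and leaving out each Phf8-KO pool were alternatives. The tools were tested on simulated counts. The members and lists were chosen with earlier results of these data known, so no list was tested as a set. Named genes are all members, for each list the up to 3 genes of lowest p, 2 luminal markers, and the 3 genes of like level whose log2 ratios lay nearest to those of Ezh2 and of Ezh1. Kdm6a, Rnf2, Ring1, Lcor and Ezhip were named outside this rule, after their values were seen.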

Additional observations from a re-analysis of the deposited data

How the results depend on the processing

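Of 80 values from tested alternatives over the 10 subunit genes, 75 kept their direction and their side of the threshold, 2 gained a call and 3 reversed. Of 20 values with a Phf8-KO pool left out, which have no test, 17 kept their direction. Phf19 alone gained a call, with a log2 fold change of 1.16 in DESeq2 (adjusted p = 0.012) and 1.16 in edgeR without a filter on low counts (adjusted p = 0.021), so that 1 subunit gene was called higher in each and 0 in every other fit. Upper quartile scaling shifted the all-gene median by -0.15 and gave a log2 fold change of 0.99 for Phf19 and -0.0908 for Rbbp7. Scaling by library size alone gave 0.0135 for Ezh1 and 0.0094 for Jarid2. Without Phf8-KO1, Ezh1 was at 0.0835 and Jarid2 at 0.16, and without Phf8-KO2, Suz12 was at -0.0162. Leaving out either Phf8-KO pool put the log2 fold change of Phf19 at 1.12 to 1.20, Ezh2 at 0.39 to 0.67, Mtf2 at -0.68 to -0.22, Ezh1 at -0.20 to 0.08, Jarid2 at -0.32 to 0.16 and Suz12 at -0.02 to 0.52, with no test. The ratio of Phf19 to Mtf2, Phf8-KO over TRAMP, was then 2.53 to 3.66. Over all genes, 0 were called higher and 7 lower. These counts were 1430 and 856 without a filter on low counts, 1533 and 747 by DESeq2, 1 and 19 with library size alone, and 0 lower by limma-voom and at a mean CPM of at least 1. The causes were not tested. No paired analysis was possible because the TRAMP library is a single pool with no replicate number in its label.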

Other observations

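Genes that PRC2 is known to silence did not share a direction. Of 24 developmental regulators that carry the mark in embryonic stem cells, 8 had 0 counts in every library and 9 were tested, with 2 above TRAMP in both Phf8-KO pools and 4 below. Foxa2, the forkhead factor gene, was at 0.300 and 0.634 CPM in the Phf8-KO libraries, against 4.85 CPM in TRAMP, and the LIM homeobox gene Lhx2 at 1.13 and 3.29 CPM, against 0.0692 CPM, which is below the level of 3 counts. Foxa2 is also in the neuroendocrine list summed earlier. Tbx5 was at 1.46 and 2.41 CPM, against 0.346 CPM. None passed edgeR's test, 2 were higher and 1 lower at p below 0.05 before adjustment, and DESeq2 called 1 higher and 1 lower. Of 7 genes known to be repressed by EZH2 in human prostate cancer cells, 6 lay above TRAMP in both pools. Dab2ip, a Ras GTPase activating tumor suppressor gene, was at 65.8 and 66.0 CPM, against 17.4 CPM (log2 fold change 1.92, standard error 0.20, edgeR adjusted p = 0.101), the guidance factor gene Slit2 at 11.4 and 5.83 CPM, against 1.77 CPM, and the E-cadherin gene Cdh1 at 921 and 1192 CPM, against 516 CPM. None passed edgeR's test, 3 were higher at p below 0.05 before adjustment, and DESeq2 called 3 higher. For both lists, the shares over all genes were 40.8% above and 42.8% below in both pools. Before adjustment 14.9% of all genes were higher and 12.2% lower, and DESeq2 called 9.42% higher and 4.59% lower.
All 5 cyclin-dependent kinase inhibitor genes tested lay above TRAMP in both Phf8-KO pools and at p below 0.05 before adjustment. Their median log2 fold change was 1.34, with 0 passing edgeR's test and 3 called higher by DESeq2. The same shares over all genes were 40.8% above in both pools, 14.9% higher before adjustment and 9.42% higher by DESeq2. Cdkn2a, the INK4A and ARF gene that PRC2 is known to silence, was at 198 and 222 CPM, against 84.3 CPM (log2 fold change 1.32, standard error 0.21), Cdkn1a at 29.7 and 41.8 CPM, against 9.62 CPM, and Cdkn1c at 21.8 and 35.2 CPM, against 8.45 CPM. Proliferation genes and these inhibitors thus both lay higher in the Phf8-KO pools.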
